A study of Mus musculus with 15 samples.

Results

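The genes for ionotropic and metabotropic receptors of glutamate and GABA were followed across Myc-driven mouse tumours, Shh-type medulloblastomas and sorted cerebellar cells. A probe set was included when the array's annotation gave it to 1 gene whose symbol named a subunit of the AMPA, kainate, NMDA or delta receptors (Gria, Grik, Grin, Grid), a metabotropic glutamate receptor (Grm), a GABA-A subunit (Gabra, Gabrb, Gabrd, Gabre, Gabrg, Gabrr, Gabrq) or a GABA-B receptor (Gabbr). This gave 65 probe sets of the 28898 assigned to 1 gene, and 37 genes of 17097. There were 4 AMPA, 5 kainate, 6 NMDA, 1 delta, 6 metabotropic, 14 GABA-A and 1 GABA-B receptor genes. Some subunit genes were not analysed here.

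RNA from 15 mouse samples was measured on 1-colour Affymetrix HT_MG-430_PM arrays, in 5 groups of 3. Myc secondary tumours arose after orthotopic transplantation of sphere cells that had been cultured from Myc primary tumours. Myc primary tumours were raised in the cortex of nude mice, which lack mature T cells, from cerebellar cells of Cdkn2c-/-, Trp53-/-, Atoh1-GFP mice infected with Myc. Shh tumours were spontaneous medulloblastomas of Cdkn2c-/-; Trp53Fl/Fl; Nestin-Cre mice, in which Cre is driven in neural stem and progenitor cells. GFP-positive and GFP-negative cells were separated by flow cytometry from Cdkn2c-/-, Trp53-/-, Atoh1-GFP cerebella at postnatal day 6. Loss of Cdkn2c and of Trp53 was therefore shared by the sorted cells and the tumour cells of all groups, so no comparison held a wild-type control. Host cells within the transplanted tumours need not carry it, and cells without Cre in Shh tumours need not lack Trp53. The sample labels name both sorted groups spontaneous tumours, and the design text, which describes sorted cerebellar cells, was followed.

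Glutamate is the main excitatory and GABA the main inhibitory transmitter of the mature brain. AMPA, kainate and NMDA receptors are cation channels built from several subunits, GABA-A receptors are chloride channels, and the Grm and Gabbr proteins are G-protein-coupled receptors. In the developing cerebellum, granule neuron progenitors migrate and mature while astroglia, oligodendrocyte precursors and inhibitory interneurons express other receptor subunits.

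Values are log2 signals as deposited, and the level of a gene is that of its probe set with the highest mean over the 15 arrays; levels were compared between groups within a probe set only. Background was put at 4.77, the 95th percentile over 23 control probe sets without a specific target. Arrays of a group correlated at 0.962 to 0.995 over all genes, and the number of arrays limits the precision. Among the label checks, Atoh1 averaged 8.92 ± 0.39 in GFP-positive cells and 4.09 ± 0.42 in GFP-negative cells, and Gli1 averaged 3.57 ± 0.10 in Myc primary tumours and 9.34 ± 0.27 in Shh tumours (SD, n = 3 each). Myc read 8.41, 5.21 and 9.00 in Myc primary tumours, low for its label on the array labelled Myc primary 2, against 8.19, 9.13 and 8.15 in Shh tumours. Myc primary and Shh tumours differed in Myc by -0.95 ± 0.74, which was not called (limma adjusted p = 0.443). Whether the probe set detects the introduced Myc was not tested. Cdkn2c lay below background in all groups. Trp53 was not analysed here. Myc primary 3, GFP-negative 3 and Myc secondary 1 were treated as standing apart from their groups, and counts without them are given for several comparisons. Correlation did not single out Myc primary 3, since Myc primary arrays correlated at 0.97 to 0.974 with each other. Myc primary 2 stayed in those counts. No criterion for choosing the 3 arrays is given, so those counts show the effect of that choice only. In such bulk samples, fewer cells of a type and less RNA per cell cannot be told apart.

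Of the 37 genes, 20 had a mean above background in at least 1 group, which is 54.1% of them against 65.9% of all genes. Genes above background numbered 8 in Myc secondary tumours, 9 in Myc primary tumours, 10 in Shh tumours, 13 in GFP-positive cells and 15 in GFP-negative cells. Gria2, Gria4, Grik2, Grik5, Gabra4 and Gabbr1 were above it in all 5 groups. In limma's F test over the groups, adjusted by Benjamini-Hochberg over all genes, 20 receptor genes varied (54.1% against 47.8% of all genes, a share near the background), and 18 of these were above background. Among those 20, the highest mean was in GFP-negative cells for 10 genes, in GFP-positive cells for 5, in Shh tumours for 3 and in each kind of Myc tumour for 1. Of these, Grik4, counted under GFP-negative cells, and Gabra3, counted under GFP-positive cells, were below background in every group. The matching counts by group were not taken over all genes. The group counts above background and of highest means are therefore not read as particular to receptor genes.

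**Figure D1:**
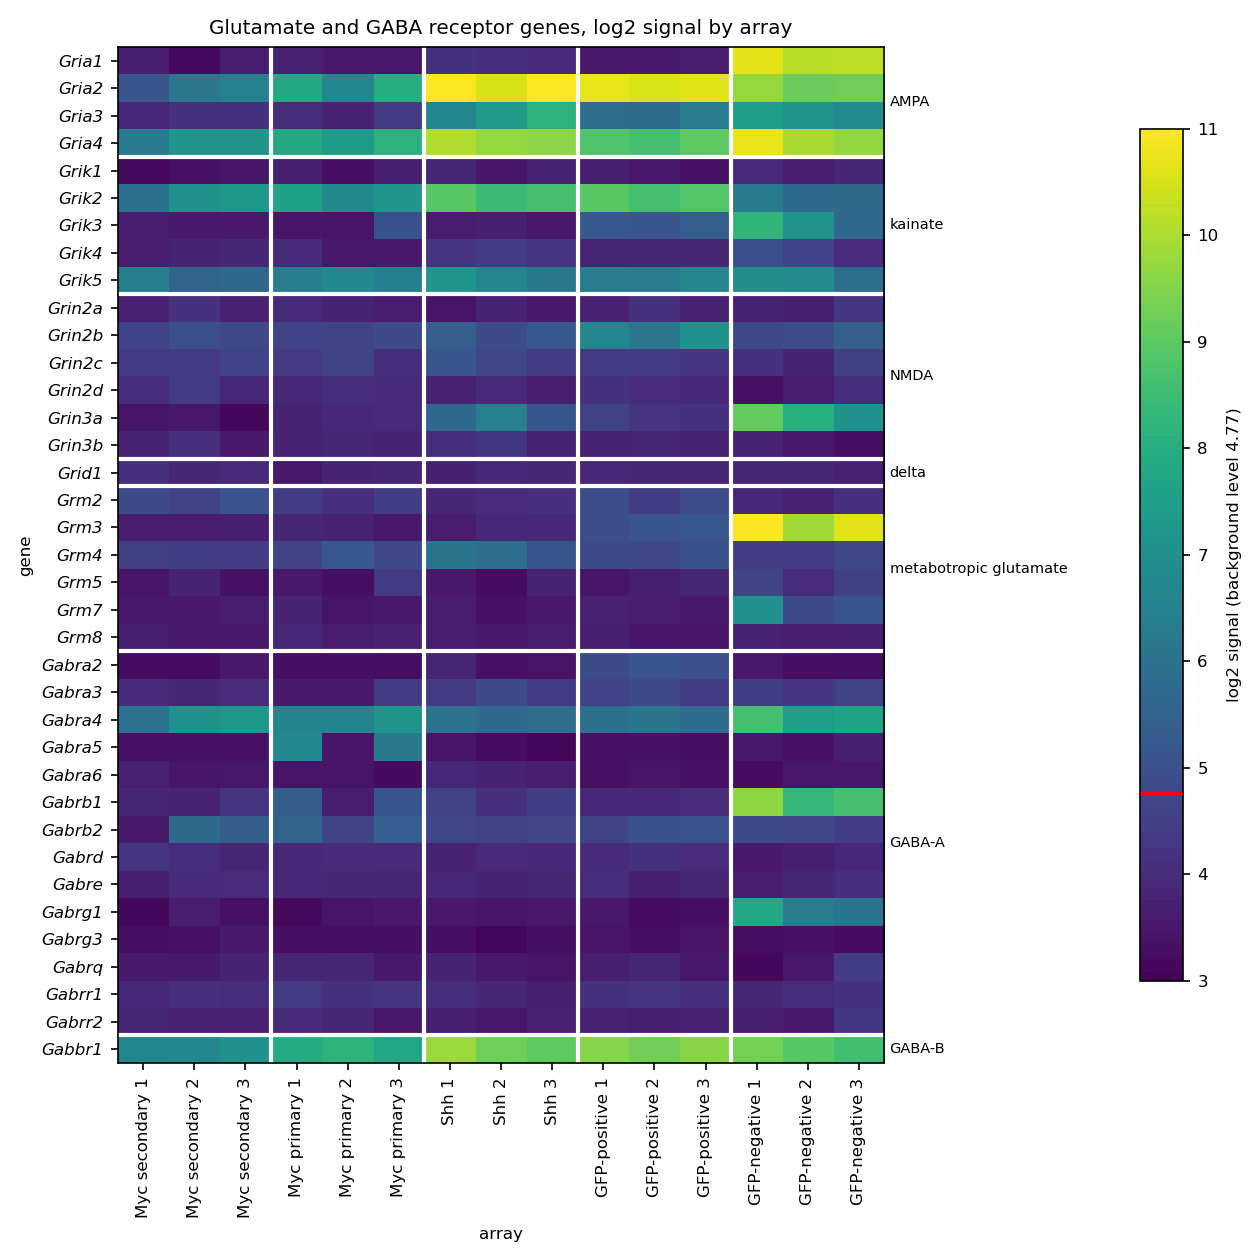
Log2 signal of the 37 receptor genes (rows, by family) on the 15 arrays (columns, by group), with the background level of 4.77 marked on the colour scale. Gria1 and Grm3 are bright only in the GFP-negative columns, at 9.88 or higher, and most NMDA and GABA-A rows are dim on every array.

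AMPA receptors carry fast excitatory transmission, and their Gria2 subunit makes the channel nearly impermeable to calcium. Gria2 read 5.14, 6.17 and 6.52 in Myc secondary tumours, 7.83, 6.66 and 7.98 in Myc primary tumours, 11.10, 10.50 and 11.06 in Shh tumours, 10.69, 10.54 and 10.61 in GFP-positive cells, and 9.74, 9.18 and 9.27 in GFP-negative cells. No array of either Myc group reached the lowest array of the other 3 groups. In Myc primary tumours Gria2 fell by 3.39 ± 0.37 log2 units against Shh tumours, a 10.5-fold difference (fit SE, n = 3 each, limma adjusted p = 8.39e-05). It fell by 3.12 ± 0.37 against GFP-positive cells (limma adjusted p = 6.89e-05) and fell by 1.91 ± 0.37 against GFP-negative cells (limma adjusted p = 0.00156). Its other probe sets differed by -4.06 and -2.78 between Myc primary and Shh tumours, and both passed the test. Shh tumours and GFP-positive cells differed by 0.27 ± 0.37 (limma adjusted p = 0.772). The lower Gria2 of Myc secondary against Myc primary tumours, -1.55 ± 0.37, missed the threshold (limma adjusted p = 0.0847). In GFP-positive cells Gria2 was 1.21 ± 0.37 higher than in GFP-negative cells (limma adjusted p = 0.0289), a call that ended in 5 of the 15 fits leaving out 1 array, without GFP-negative 2 (1.11) or 3 (1.15) or GFP-positive 1 (1.18), 2 (1.25) or 3 (1.22).

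Gria2 is shown with its promoter because of this difference and because a repressor motif lies in the window. The window covers 250 bases before and 50 after the annotated start on the minus strand, at chr3:80802786-80803085 of GRCm38.p6 (RefSeq). Capitals mark a match, on the opposite strand, to AGCACC followed, after any 2 bases, by GGACAG, the core of the RE1 element that the neuronal gene repressor REST binds.
Gria2: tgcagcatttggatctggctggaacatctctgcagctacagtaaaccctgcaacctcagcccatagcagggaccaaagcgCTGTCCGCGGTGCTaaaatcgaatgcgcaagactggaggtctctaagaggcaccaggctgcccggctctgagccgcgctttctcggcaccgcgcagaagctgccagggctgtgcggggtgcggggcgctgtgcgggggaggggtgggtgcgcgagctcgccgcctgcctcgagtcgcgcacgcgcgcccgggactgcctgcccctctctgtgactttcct
That motif, searched on both strands, stood in 17 of 32851 promoter windows of that length, or 0.0517%, and in 1 of the 34 windows of the receptor genes. A match is a description of letters, and REST binding was not measured.

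Gria4 and Gria3, subunits of the same channels, were also low in the Myc tumours. Gria4 read 6.30, 7.20 and 7.21 in Myc secondary tumours, 7.82, 7.39 and 8.13 in Myc primary tumours, 10.05, 9.74 and 9.60 in Shh tumours, 8.80, 8.60 and 9.01 in GFP-positive cells, and 10.73, 9.96 and 9.72 in GFP-negative cells. The Myc arrays all lay below the arrays of the other groups. In Myc primary tumours Gria4 fell by 2.02 ± 0.30 against Shh tumours (limma adjusted p = 0.000666) and fell by 2.36 ± 0.30 against GFP-negative cells (limma adjusted p = 6.14e-05). Its smaller difference from GFP-positive cells, -1.03 ± 0.30 (limma adjusted p = 0.0238), ended without Myc primary 1 (-1.05) or 2 (-0.83) and without GFP-positive 1 (-1.03) or 3 (-0.92). Gria4 fell by 1.33 ± 0.30 in GFP-positive against GFP-negative cells (limma adjusted p = 0.00503), a call that rested on 1 probe set; the other probe sets differed by 0.29 and 0.28, and their mean with it by -0.25 (limma adjusted p = 0.515).

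Gria3 stayed below background on all 6 Myc arrays. It read 3.93, 4.14 and 4.17 in Myc secondary tumours and 4.05, 3.76 and 4.42 in Myc primary tumours, against 6.66, 7.34 and 8.14 in Shh tumours, 5.87, 5.82 and 6.35 in GFP-positive cells, and 7.46, 7.13 and 6.88 in GFP-negative cells. Where a group lay below background its fold is a bound, taken against the higher of the background level and the measured signal on each array. Gria3 was at least 6.11-fold lower in Myc primary than in Shh tumours (limma adjusted p = 2.44e-05), at least 2.37-fold lower than in GFP-positive cells (limma adjusted p = 0.000633) and at least 5.23-fold lower than in GFP-negative cells (limma adjusted p = 1.13e-05). Shh tumours were 1.37 ± 0.31 above GFP-positive cells (limma adjusted p = 0.0177), a call lost without Shh 2 (1.39) or 3 (0.98) or GFP-positive 1 (1.30) or 2 (1.27). In GFP-positive cells it fell by 1.14 ± 0.31 against GFP-negative cells (limma adjusted p = 0.0155), a call lost without GFP-negative 1 (-0.99) or GFP-positive 1 (-1.07) or 2 (-1.04).

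Gria1, another AMPA subunit, had the largest F statistic of the 37 genes and was high in GFP-negative cells alone. It read between 3.23 and 4.13 on the 12 arrays of the other groups, below background, and 10.67, 10.18 and 10.19 in GFP-negative cells. The level in GFP-positive cells, 3.59 ± 0.05, was at least 47.7-fold lower than in GFP-negative cells, 10.35 ± 0.28 (SD, n = 3 each, limma adjusted p = 4.63e-11). Myc primary tumours gave the same bound of 47.7-fold against GFP-negative cells (limma adjusted p = 4.18e-11).

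Among kainate receptors, which modulate transmitter release and slow excitation, Grik2 ran the other way from Gria1 in the sorted cells. It read 5.96, 7.12 and 7.25 in Myc secondary tumours, 7.61, 6.78 and 7.21 in Myc primary tumours, 8.93, 8.46 and 8.65 in Shh tumours, 8.97, 8.60 and 8.85 in GFP-positive cells, and 6.27, 5.73 and 5.76 in GFP-negative cells. Shh and GFP-positive arrays overlapped, and the Myc primary arrays lay between these and the GFP-negative arrays. Grik2 was 2.88 ± 0.31 higher in GFP-positive than in GFP-negative cells (limma adjusted p = 2.22e-05). In Myc primary tumours it fell by 1.48 ± 0.31 against Shh tumours (limma adjusted p = 0.00671), fell by 1.61 ± 0.31 against GFP-positive cells (limma adjusted p = 0.00231) and was 1.27 ± 0.31 higher than in GFP-negative cells (limma adjusted p = 0.00685). Between Shh tumours and GFP-positive cells the difference was -0.12 ± 0.31 (limma adjusted p = 0.893).

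Grik3, a low-affinity kainate subunit, read 3.42 to 3.70 on the Myc secondary and Shh arrays and on Myc primary 1 and 2, 5.16, 5.12 and 5.43 in GFP-positive cells, and 8.22, 7.16 and 5.70 in GFP-negative cells. Myc primary 3 was the only Myc array above background, at 5.02, and it also carried the highest oligodendrocyte list mean of the Myc arrays, 8.92; the part of such cells in that value was not tested. Grik3 fell by 1.79 ± 0.52 in GFP-positive against GFP-negative cells (limma adjusted p = 0.0211), a call lost without GFP-negative 1 (-1.19) or 2 (-1.73) or GFP-positive 1 (-1.75) or 2 (-1.73). Against GFP-negative cells it was at least 4.52-fold lower in Myc primary tumours (limma adjusted p = 0.000552), a bound that was 2.99-fold without GFP-negative 1 and 7.15-fold without GFP-negative 3. Both calls rested on 1 probe set. The other Grik3 probe set averaged 4.04 in Myc primary tumours, 4.14 in GFP-positive cells and 4.09 in GFP-negative cells, below background. Grik5, which encodes a high-affinity partner subunit, had group means between 5.90 and 6.68 and did not vary in the F test (adjusted p = 0.245), while Grik1 and Grik4 had every group mean below background. Grik4 nonetheless fell by 0.68 ± 0.20 in GFP-positive against GFP-negative cells (limma adjusted p = 0.0246), a call lost in 5 of 15 fits without 1 array (range -0.94 to -0.47). The call was also lost with arrays centred on their median gene, at -0.19 (limma adjusted p = 0.433). Cyclic loess (-0.62) and the 6 arrays of the comparison alone did not keep it either.

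NMDA receptors open only when glutamate binds to a depolarised cell, and Grin2b is the regulatory subunit typical of immature neurons. Grin2b read 4.61, 4.95 and 4.72 in Myc secondary tumours, 4.61, 4.65 and 4.82 in Myc primary tumours, 5.41, 4.84 and 5.20 in Shh tumours, 6.68, 6.17 and 7.10 in GFP-positive cells, and 4.75, 4.94 and 5.42 in GFP-negative cells. Every GFP-positive array stood above every array of the other groups. Shh tumours differed from GFP-positive cells by -1.50 ± 0.24 (limma adjusted p = 0.0021), Myc primary tumours were at least 3.64-fold lower than them (limma adjusted p = 7.31e-05), and GFP-positive cells were 1.62 ± 0.24 higher than GFP-negative cells (limma adjusted p = 0.000244).

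Grin3a, a subunit that lowers calcium entry through NMDA receptors, followed another order. It read 3.44, 3.52 and 3.16 in Myc secondary tumours, 3.75, 3.91 and 3.99 in Myc primary tumours, 5.66, 6.48 and 5.07 in Shh tumours, 4.55, 4.19 and 4.17 in GFP-positive cells, and 9.06, 8.02 and 7.07 in GFP-negative cells. Only GFP-negative cells and Shh tumours exceeded background. It was at least 9.74-fold lower in GFP-positive than in GFP-negative cells (limma adjusted p = 2.71e-05) and at least 1.96-fold lower in Myc primary than in Shh tumours (limma adjusted p = 0.00953). The difference between Shh tumours and GFP-positive cells, 1.43 ± 0.42, missed the threshold (limma adjusted p = 0.057). Grin2a, Grin2c, Grin2d, Grin3b and the delta receptor gene Grid1 had no group mean above background.

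Metabotropic receptors of the Grm2 and Grm3 kind lower cyclic AMP, and Grm3 is also a receptor of astrocytes. Grm3 read 4.92, 5.14 and 5.16 in GFP-positive cells and 10.94, 9.88 and 10.64 in GFP-negative cells, while the 9 tumour arrays lay between 3.56 and 3.92, below background. It fell by 5.41 ± 0.22 in GFP-positive against GFP-negative cells, a 42.6-fold difference (limma adjusted p = 1.25e-08). Myc primary tumours were at least 52.6-fold lower than GFP-negative cells (limma adjusted p = 1.58e-09). Against GFP-positive cells, Shh tumours were at least 1.24-fold lower (limma adjusted p = 0.00348), and the same bound applied to Myc primary tumours (limma adjusted p = 0.000592).

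Grm7, a presynaptic receptor, exceeded background in GFP-negative cells only, with 7.03, 4.81 and 5.07, and GFP-positive cells were at least 1.83-fold lower (limma adjusted p = 0.00294). The first GFP-negative array was far above the others, and without it the bound was 1.13-fold. The other Grm7 probe set averaged 3.49 in GFP-positive cells and 3.46 in GFP-negative cells, both below background. Grm4, the presynaptic receptor of granule cell axons, was highest in Shh tumours, at 6.07, 5.86 and 5.06, against 4.53, 5.19 and 4.74 in Myc primary tumours and 4.77, 4.74 and 4.99 in GFP-positive cells. Myc primary and Shh arrays overlapped; the difference of -0.85 ± 0.23 (limma adjusted p = 0.0274) was lost without Myc primary 1 (-0.70) or 3 (-0.81) or Shh 1 (-0.64) or 2 (-0.75). The 0.83 ± 0.23 by which Shh tumours exceeded GFP-positive cells (limma adjusted p = 0.0498) was lost in 11 of 15 such fits (0.63 to 1.13).

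Grm2 lay near background: its means were 4.82 in Myc secondary tumours, 4.34 in Myc primary tumours, 3.99 in Shh tumours, 4.76 in GFP-positive cells and 3.91 in GFP-negative cells. It was called 0.85 ± 0.17 higher in GFP-positive than in GFP-negative cells (limma adjusted p = 0.0025) with both means below background. In Shh tumours it fell by 0.77 ± 0.17 against GFP-positive cells (limma adjusted p = 0.0157), a call lost without Shh 1 (-0.70) or GFP-positive 1 (-0.69) or 3 (-0.70). Grm5 and Grm8 stayed below background in every group.

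**Figure D2:**
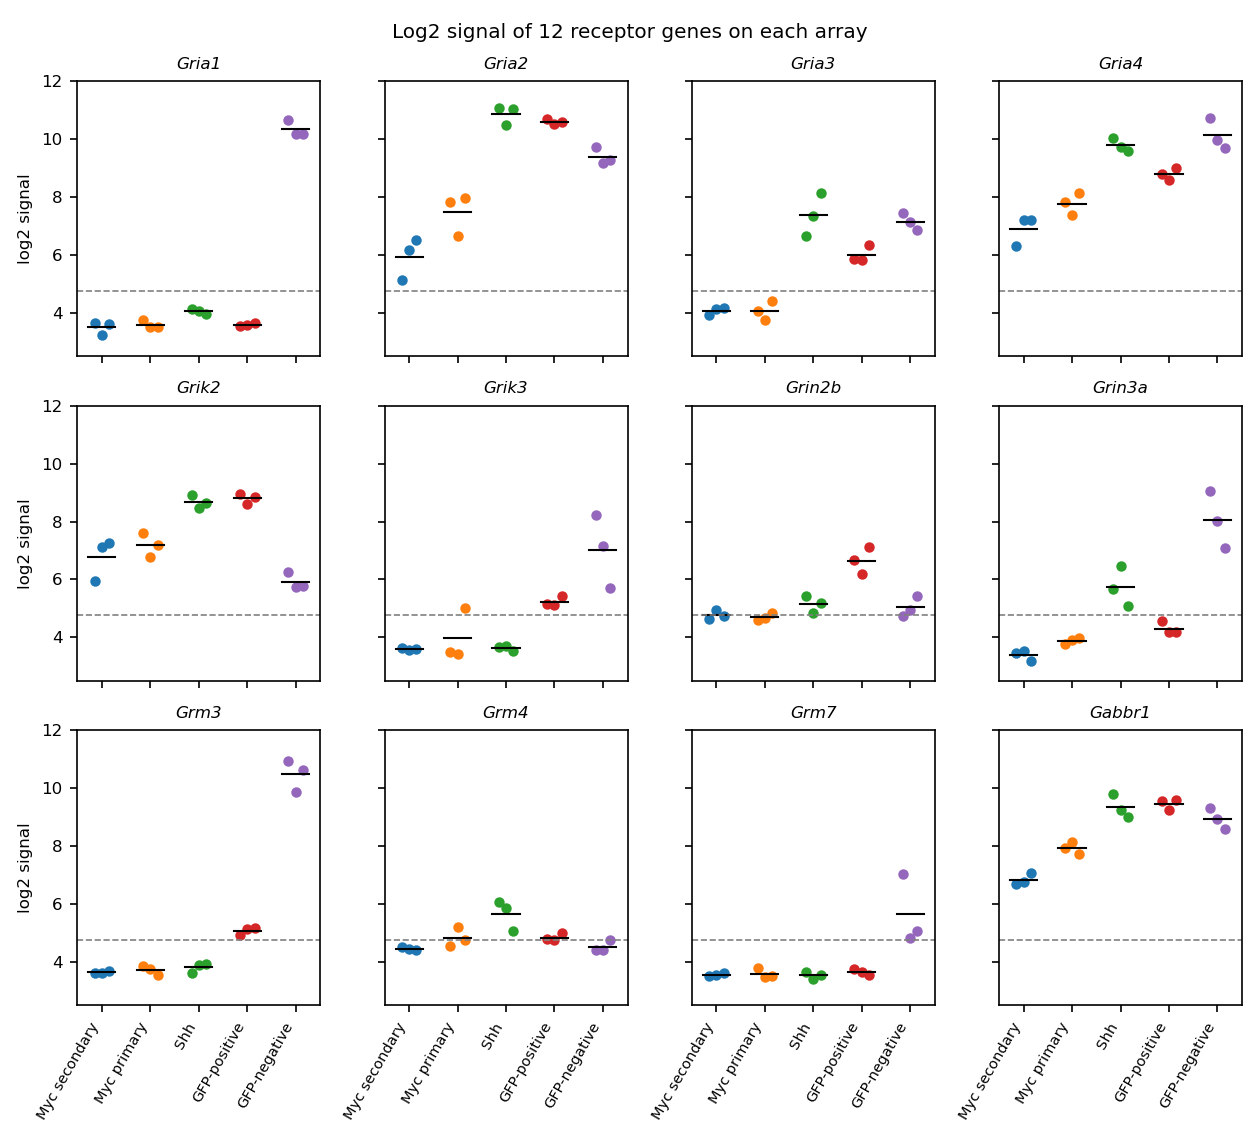
Log2 signal of 11 glutamate receptor genes and Gabbr1 on each array (points), with the group mean (black line) and the background level (dashed line). Gria1 and Grm3 are high only in GFP-negative cells, Grik2 is high in Shh tumours and GFP-positive cells, and Gria2, Gria4 and Gabbr1 are lowest in the Myc tumours.

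GABA-A receptors are pentamers of alpha, beta and other subunits, and several of their genes are neighbours. Gabrg1, Gabra2, Gabra4 and Gabrb1 follow each other on chromosome 5 with 1 other coding gene among them, between Gabra2 and Gabra4. Gabra4 and Gabrb1 lie on opposite strands and overlap at their starts: the start sites are 387 bases apart, each inside the other gene. A second annotated start of Gabrb1, whose window is not shown, lies 41624 bases from that of Gabra4. Of each gene 1 promoter window is shown because Gabra2 had its highest mean in GFP-positive cells, unlike its neighbours. Gabrg1, Gabra4 and Gabrb1 had theirs in GFP-negative cells. Capitals mark the GC box GGGCGG on either strand; the windows are from RefSeq, GRCm38.p6, at chr5:70842568-70842867 (minus strand), chr5:71095800-71096099 (minus), chr5:71658259-71658558 (minus) and chr5:71657671-71657970 (plus).
Gabrg1: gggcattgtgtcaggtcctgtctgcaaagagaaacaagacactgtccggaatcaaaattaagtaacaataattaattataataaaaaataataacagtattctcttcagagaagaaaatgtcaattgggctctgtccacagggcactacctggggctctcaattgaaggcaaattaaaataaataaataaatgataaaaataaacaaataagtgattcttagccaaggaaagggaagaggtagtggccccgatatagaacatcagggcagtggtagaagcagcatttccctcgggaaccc
Gabra2: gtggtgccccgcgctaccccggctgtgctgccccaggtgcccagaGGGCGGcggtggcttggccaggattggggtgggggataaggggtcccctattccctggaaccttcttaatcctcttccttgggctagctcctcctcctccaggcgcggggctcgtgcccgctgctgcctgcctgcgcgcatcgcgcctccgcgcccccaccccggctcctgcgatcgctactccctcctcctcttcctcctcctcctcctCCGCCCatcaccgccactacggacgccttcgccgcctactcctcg
Gabra4: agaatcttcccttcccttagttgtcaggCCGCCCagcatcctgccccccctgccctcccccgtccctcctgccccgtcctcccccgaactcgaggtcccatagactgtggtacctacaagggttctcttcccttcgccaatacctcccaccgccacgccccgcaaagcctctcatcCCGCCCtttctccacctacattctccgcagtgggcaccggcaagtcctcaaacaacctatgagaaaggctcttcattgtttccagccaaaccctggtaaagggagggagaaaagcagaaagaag
Gabrb1: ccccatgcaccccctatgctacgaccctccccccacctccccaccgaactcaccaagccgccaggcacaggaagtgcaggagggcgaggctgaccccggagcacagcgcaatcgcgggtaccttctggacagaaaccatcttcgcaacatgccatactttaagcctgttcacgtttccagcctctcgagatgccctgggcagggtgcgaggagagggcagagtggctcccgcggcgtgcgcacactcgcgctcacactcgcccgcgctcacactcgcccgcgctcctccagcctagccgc
The windows of Gabra2 and Gabra4 hold GC boxes, and these letters are not in the other windows shown. Over both strands, the GC box was in 17 of 34 receptor gene windows, 50%, against 35.7% of all 32851 windows. CACGTG, the E-box bound by Myc, was in 0 of the 34 windows against 7.15% of all windows; CAGATGG, an E-box of Atoh1, in 0 against 5.3%; and GACCACCCA, a Gli motif, in 0 against 0.253%. TATAAA was in 4 windows, 11.8%, against 13.6% of all. Windows of the same gene can overlap: both Grm7 windows hold the same GC box, and both Gabra3 windows the same TATAAA. The receptor windows had a median G+C content of 60.4%, against 52.7% of all windows, and 27 of the 37 genes had a window.

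Gabrb1, Gabrg1 and, as given below, Gabra4 had their highest mean in GFP-negative cells. Gabrb1 read 3.83, 3.79 and 4.21 in Myc secondary tumours, 5.36, 3.63 and 5.07 in Myc primary tumours, 4.58, 4.12 and 4.48 in Shh tumours, 3.88, 3.91 and 4.01 in GFP-positive cells, and 9.64, 8.34 and 8.64 in GFP-negative cells. Only Myc primary 1 and 3 among the other arrays exceeded background. Gabrb1 was at least 17.2-fold lower in GFP-positive than in GFP-negative cells (limma adjusted p = 2.29e-06) and at least 14-fold lower in Myc primary tumours than in GFP-negative cells (limma adjusted p = 7.28e-06). Gabrg1 read 3.16 to 3.60 on the arrays of the other groups and 7.75, 6.38 and 6.12 in GFP-negative cells, and GFP-positive cells were at least 3.95-fold lower than GFP-negative cells (limma adjusted p = 6.78e-06).

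Gabra2, at the centre of the cluster, exceeded background in GFP-positive cells only. It read 4.87, 5.12 and 4.95 there, and 3.25 to 3.84 elsewhere. Because 4.98 is close to background, the bound is small: GFP-positive cells were at least 1.16-fold higher than GFP-negative cells (limma adjusted p = 4.68e-06), with a measured difference of 1.60 ± 0.14. Shh tumours (limma adjusted p = 8.07e-05) and Myc primary tumours (limma adjusted p = 5.81e-06) were each at least 1.16-fold lower than GFP-positive cells.

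Gabra4 was above background on every array. It read 5.99, 7.10 and 7.28 in Myc secondary tumours, 6.60, 6.57 and 7.15 in Myc primary tumours, 6.01, 5.74 and 5.86 in Shh tumours, 5.89, 6.11 and 5.78 in GFP-positive cells, and 8.61, 7.47 and 7.67 in GFP-negative cells. Gabra4 fell by 1.99 ± 0.34 in GFP-positive against GFP-negative cells (limma adjusted p = 0.000768). All 3 Myc primary arrays stood above all Shh and GFP-positive arrays, but the difference from Shh tumours, 0.90 ± 0.34, missed the threshold (limma adjusted p = 0.0935). In Myc primary tumours it fell by 1.14 ± 0.34 against GFP-negative cells (limma adjusted p = 0.0191), a call lost without Myc primary 1 (-1.05) or 2 (-1.04) or GFP-negative 1 (-0.79).

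Gabra5, which encodes a subunit known from extrasynaptic receptors of the hippocampus, was the only receptor gene called higher in Myc primary than in Shh tumours. It read 6.72, 3.50 and 6.25 in Myc primary tumours, against 3.13 to 3.68 on the other 12 arrays. Myc primary 1 and 3 were high, and Myc primary 2 lay below background with the rest. The level was at least 1.65-fold higher than in Shh tumours (limma adjusted p = 0.0209), GFP-positive cells (limma adjusted p = 0.0168) and GFP-negative cells (limma adjusted p = 0.0189), with a measured difference of 2.20 ± 0.58 from Shh tumours. Without Myc primary 1 the difference from Shh tumours was 1.59 (limma adjusted p = 0.0801), without Myc primary 3 it was 1.82 (limma adjusted p = 0.0792), without Shh 2 it was 2.19 and without Shh 3 it was 2.12, none of which passed; without Myc primary 2 it was 3.20. The bound of 1.65-fold was 1.08-fold without Myc primary 1 and 3.28-fold without Myc primary 2. The differences from GFP-positive cells (1.50 and 1.74) and from GFP-negative cells (1.34 and 1.58) were also lost without Myc primary 1 or 3, and without GFP-positive 3 (2.09) or GFP-negative 2 (1.89). Against Myc primary tumours, Myc secondary tumours differed by -2.12 ± 0.58 (limma adjusted p = 0.13). On Myc primary 1, 2 and 3 the astroglia list had means of 7.30, 5.43 and 7.51 and Myc itself read 8.41, 5.21 and 9.00, so both were low on the array where Gabra5 was low; their part was not tested.

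**Figure D3:**
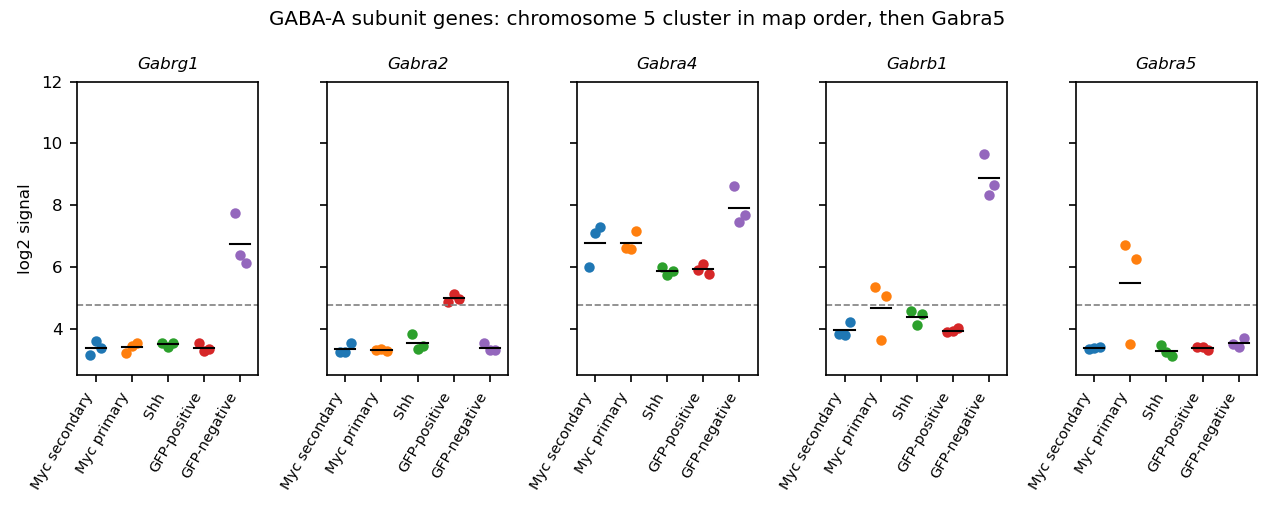
Log2 signal of the 4 GABA-A genes of the chromosome 5 cluster, in map order, and of Gabra5 on each array (points), with the group mean (black line) and the background level (dashed line). Gabrg1, Gabra4 and Gabrb1 are highest in GFP-negative cells, with Gabra4 above background on every array. Gabra2 passes the background level in GFP-positive cells, and Gabra5 is high on 2 of 3 Myc primary arrays.

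Gabrb2 had group means from 4.66 to 5.16 and did not vary in the F test (adjusted p = 0.825). Gabra3, Gabra6, Gabrd, Gabre, Gabrg3, Gabrq, Gabrr1 and Gabrr2 had every group mean below background. Small differences of Gabra3 and Gabra6 were called at that level and were lost in 4 to 13 of the 15 fits without 1 array; for Gabra6 in Myc primary against Shh tumours, -0.39 ± 0.12 (limma adjusted p = 0.049), the range was -0.45 to -0.31.

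Gabbr1, the ligand-binding subunit of the GABA-B receptor, was expressed in every group and lowest in the Myc tumours. It read 6.68, 6.74 and 7.06 in Myc secondary tumours, 7.92, 8.16 and 7.73 in Myc primary tumours, 9.80, 9.25 and 9.02 in Shh tumours, 9.55, 9.25 and 9.58 in GFP-positive cells, and 9.32, 8.93 and 8.59 in GFP-negative cells. The ranges of both Myc groups were separate from each other and from the rest, whose ranges overlapped. In Myc primary tumours Gabbr1 fell by 1.42 ± 0.23 against Shh tumours (limma adjusted p = 0.00101), fell by 1.52 ± 0.23 against GFP-positive cells (limma adjusted p = 0.00033) and fell by 1.01 ± 0.23 against GFP-negative cells (limma adjusted p = 0.00375). Its other probe sets differed by -0.76 and 0.11 between Myc primary and Shh tumours, neither of which passed.

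Myc primary tumours were set against Shh tumours to compare the 2 tumour types. These groups also differed in site, host, transplantation, Trp53 alleles and the Atoh1-GFP reporter, which cannot be told apart from tumour type here. The receptor genes called were mostly lower in the Myc primary tumours: of 37, 1 was called higher and 8 lower, 24.3% against 15.8% of all genes, where 8.46% were higher and 7.33% lower. By family, 3 of 4 AMPA genes fell, as did 1 of 5 kainate, 1 of 6 NMDA, 1 of 6 metabotropic, 1 of 14 GABA-A and the GABA-B gene, and 1 GABA-A gene rose. The median difference was -0.09 over the receptor genes and 0.08 over all genes, and 28 were not called. Without the arrays that stood apart 0 were higher and 8 lower, with arrays centred on their median gene the split was 2 higher and 6 lower, and without Shh 2 the count was 6. Without the array labelled Myc primary 2, 1 was higher and 7 lower. Of the granule progenitor list, 6 of 6 measured markers were lower in Myc primary tumours, with array means of 5.12 to 5.34 there and 9.62 to 9.91 in Shh tumours. Of other lists, 4 of 8 granule neuron, 2 of 5 forebrain and 1 of 5 oligodendrocyte precursor markers were lower, with 0 higher. Of 11 astroglia markers 1 was higher and 3 lower. In the oligodendrocyte, endothelial and fibroblast lists 1 marker each was higher and 0 lower. Of the microglia and GABAergic lists 0 markers were called. The part of any of these lists in the receptor differences was not tested.

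Secondary tumours were compared with the primary tumours from which they descend by culture and transplantation. Of the 37 genes 0 were higher and 1, Gabbr1, was lower in Myc secondary tumours, 2.7% against 0.719% of all genes, where 0.257% were higher and 0.462% lower. Gabbr1 fell by 1.11 ± 0.23 (limma adjusted p = 0.0481). The call was lost in 11 of the 15 fits without 1 array, with values from -1.22 to -0.996 and adjusted p up to 0.153 in limma, among them every fit without a Myc primary or Myc secondary array, and its other probe sets differed by -0.14 and -0.05. At an unadjusted p under 0.05 another 4 receptor genes differed.

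Sorting on the Atoh1 reporter separated the 2 groups of cerebellar cells. Of 37, 5 were higher and 11 lower in GFP-positive than in GFP-negative cells, 43.2% against 26.3% of all genes, where 12.6% were higher and 13.8% lower. The higher genes were Grik2, Grin2b, Gabra2, Gria2 and Grm2, and the lower ones Gria1, Grm3, Gabrb1, Grin3a, Gabrg1, Grm7, Gabra4, Grik3, Gria4, Gria3 and Grik4. With arrays centred on their median gene the split became 14 higher and 9 lower, and centring moved the median difference of all genes to 0.54, against 0.04 as deposited; without the arrays that stood apart it was 7 higher and 12 lower. Non-neuronal markers were lower in the GFP-positive cells too: 10 of 11 astroglia, 4 of 5 oligodendrocyte precursor, 6 of 7 oligodendrocyte and 8 of 8 microglia markers. The fifth precursor marker, Pdgfra, went the other way, with a mean of 8.69 in GFP-positive cells and 4.996 in GFP-negative cells. Astroglia list means were 5.10 to 5.35 in GFP-positive cells and 9.97 to 10.96 in GFP-negative cells, and all 8 microglia markers, Aif1, Csf1r and Ptprc among them, were below background in GFP-positive cells. The part of these cells in the receptor differences was not tested.

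**Figure D4:**
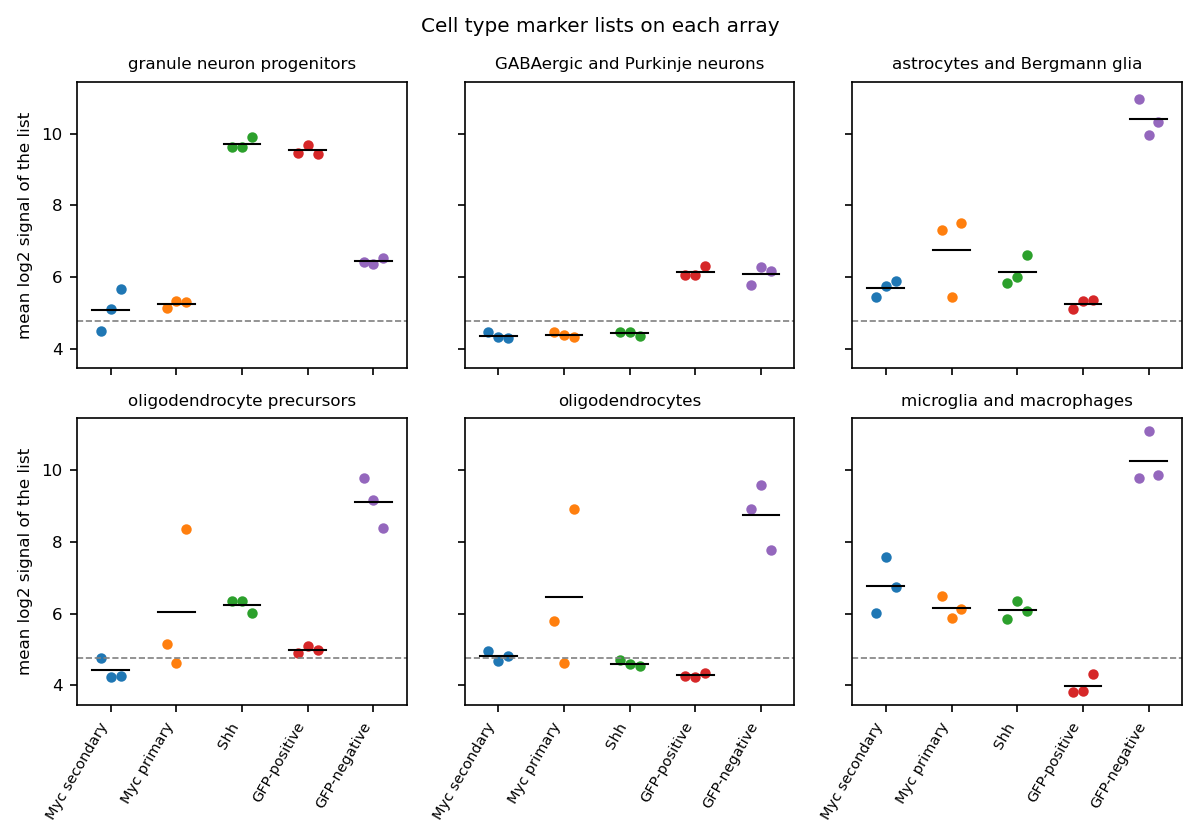
Mean log2 signal of 6 cell type marker lists on each array (points), with the group mean (black line) and the background level (dashed line). The glial and microglia lists are highest in GFP-negative cells, and oligodendrocyte genes reach 8.92 on Myc primary 3, against 5.81 and 4.64 on the other Myc primary arrays.

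Shh tumours were next set against GFP-positive cells, which carry granule progenitor markers. Of 37 genes 2 were higher (Gria3 and Grm4) and 4 lower (Grin2b, Gabra2, Grm3 and Grm2) in Shh tumours, 16.2% against 7.56% of all genes, where 4.63% were higher and 2.92% lower. The count was 10, with 5 higher and 5 lower, without the arrays that stood apart, and 3 without GFP-positive 1. The split was 5 higher and 4 lower after cyclic loess and 1 higher and 5 lower with centred arrays. Granule progenitor list means were 9.62 to 9.91 in Shh tumours and 9.44 to 9.69 in GFP-positive cells, ranges that overlap. Members of that list went both ways: of 6 measured, 1 was called higher and 1 lower in Shh tumours. Gli1 averaged 9.34 in Shh tumours and 7.95 in GFP-positive cells, and Zic2 averaged 7.52 and 9.38. Other lists moved: 5 of 8 microglia and 3 of 11 astroglia markers were higher and 5 of 9 GABAergic markers lower in Shh tumours. Microglia list means were 5.84 to 6.35 in Shh tumours and 3.81 to 4.31 in GFP-positive cells, and GABAergic list means were 4.35 to 4.47 in Shh tumours and 6.04 to 6.31 in GFP-positive cells. Their part in the receptor differences was not tested.

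Myc primary tumours were also compared with both kinds of sorted cell; these comparisons share the Myc primary arrays with that against Shh tumours. Against GFP-positive cells 1 gene was higher and 9 lower, 27% against 24.8% of all genes, a share near the background, where 14.5% were higher and 10.3% lower. In that comparison 6 of 6 granule progenitor and 5 of 9 GABAergic markers were lower in Myc primary tumours, and 5 of 8 microglia, 4 of 11 astroglia and 3 of 5 fibroblast markers were higher. Microglia list means were 5.89 to 6.49 in Myc primary tumours and 3.81 to 4.31 in GFP-positive cells; the part of these cells was not tested. Against GFP-negative cells 2 genes, Grik2 and Gabra5, were higher and 14 lower, 43.2% against 33.8% of all genes, where 19.1% were higher and 14.7% lower. In this last comparison 4 of 4 AMPA genes fell. Astroglia list means were 5.43 to 7.51 in Myc primary tumours and 9.97 to 10.96 in GFP-negative cells, and 10 of 11 markers were lower. So were 8 of 8 microglia, 4 of 5 oligodendrocyte precursor, 4 of 7 oligodendrocyte and 3 of 5 endothelial markers, with 0 higher in these lists. Granule neuron markers went both ways, with 4 of 8 higher and 2 lower, and 2 of 5 forebrain markers were higher. The part of any of these cells was not tested. Without Myc primary 1 the calls numbered 7 against GFP-positive cells and 13 against GFP-negative cells, and without the array labelled Myc primary 2 they numbered 9 and 15.

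**Figure D5:**
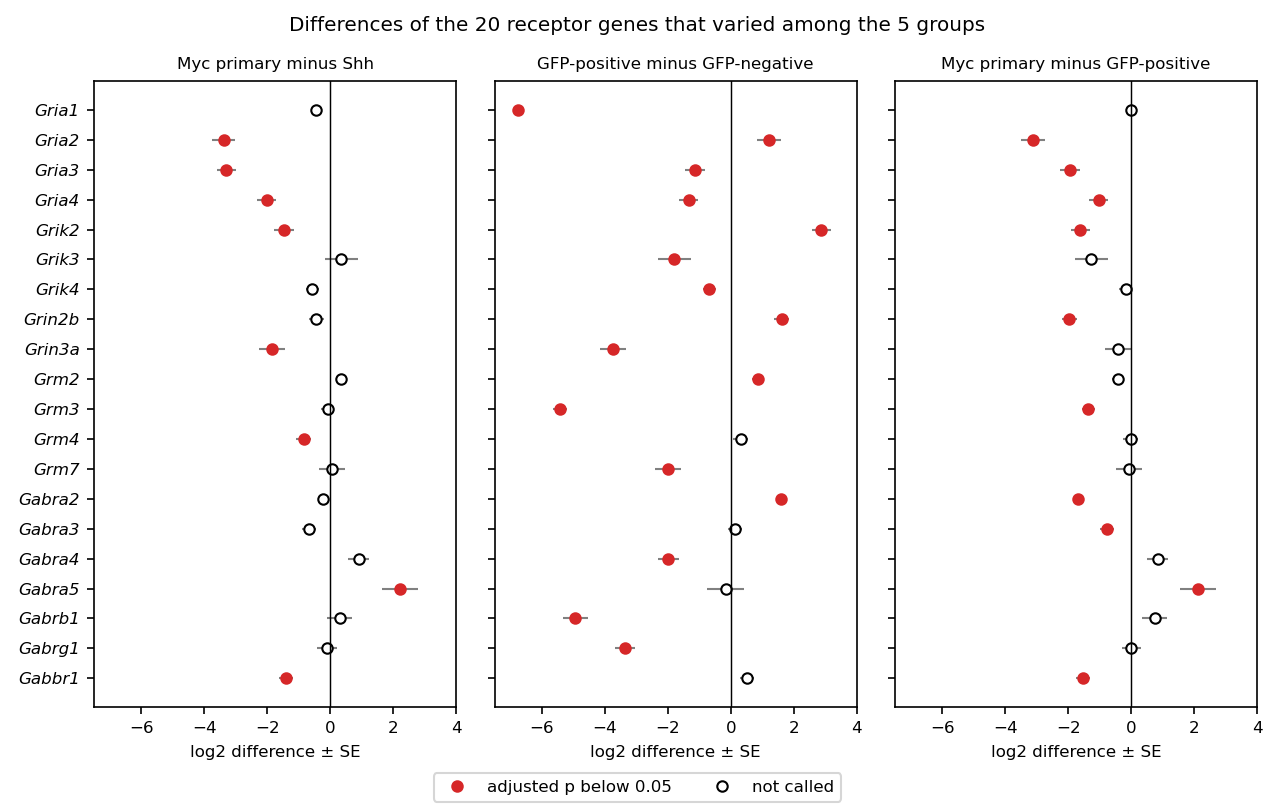
Log2 difference ± SE of the fit for the 20 receptor genes that varied over the 5 groups, in 3 comparisons; filled points passed an adjusted p of 0.05. The AMPA genes Gria2, Gria3 and Gria4, Grik2 and Gabbr1 lie left of 0 in both Myc primary comparisons, and Grik2 lies at 2.88 in GFP-positive minus GFP-negative, where Gria1 lies far to the left with its GFP-positive signal below background.

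Other genes of glutamate and GABA signalling were counted from lists of synthesis, uptake, chloride transport, auxiliary subunit and scaffold genes, of which 56 were measured. In Myc primary against Shh tumours 3 of the 56 were higher and 15 lower, where 8.46% of all genes were higher and 7.33% lower, and of the 19 auxiliary subunits 1 was higher and 7 lower. Cacng2 (stargazin), which carries AMPA receptors to the synapse, averaged 5.08 ± 0.47 in Myc primary tumours and 9.04 ± 0.52 in Shh tumours (SD, n = 3 each), a difference of -3.97 ± 0.29 (limma adjusted p = 3.69e-06). Gsg1l, another AMPA receptor partner, averaged 4.44 ± 0.42 in Myc primary tumours, below background, and 9.29 ± 0.61 in Shh tumours (limma adjusted p = 9.94e-07). Neto2, a kainate receptor partner, fell by 1.81 ± 0.34 in Myc primary against Shh tumours (limma adjusted p = 0.00278), and the GABA-B partner Kctd8 averaged 3.90 ± 0.11 in Myc primary tumours, below background, and 5.74 ± 0.58 in Shh tumours (SD, n = 3 each, limma adjusted p = 0.000255). Syndig1, an AMPA receptor-associated membrane protein, was the auxiliary gene that rose, at 6.44 ± 0.42 in Myc primary tumours and 3.76 ± 0.48 in Shh tumours (limma adjusted p = 0.00147).

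Among genes of transmitter synthesis, packaging and uptake, several differed between groups. Slc17a6, the vesicular glutamate transporter of immature granule cells, averaged 4.60 ± 0.60 in Myc primary tumours, below background, and 9.58 ± 0.28 in Shh tumours (limma adjusted p = 7.84e-05). Gad1, which makes GABA, averaged 3.53 ± 0.16 in Myc primary and 3.64 ± 0.17 in Shh tumours, both below background, and 9.28 ± 0.43 in GFP-positive cells. It was 0.89 ± 0.30 higher in GFP-positive than in GFP-negative cells (limma adjusted p = 0.0441), and the GABAergic list means were 6.04 to 6.31 in GFP-positive and 5.79 to 6.28 in GFP-negative cells. Members of that list went both ways: of 9 measured, 3 were called higher and 1 lower in GFP-positive cells. Ptf1a averaged 5.92 in GFP-positive and 10.88 in GFP-negative cells. The neuronal glutamate transporter Slc1a1 averaged 4.25 ± 0.05 in GFP-positive cells, below background, and 9.25 ± 0.73 in GFP-negative cells (limma adjusted p = 1.21e-05). The astroglial transporter Slc1a3 fell by 2.85 ± 0.26 in GFP-positive against GFP-negative cells (limma adjusted p = 5.1e-06). In that comparison 13 of the 56 genes were higher and 13 lower, where 26.3% of all genes were called. Of the 56 genes, 0 rose and 1 fell in Myc secondary against Myc primary tumours, where 0.719% of all genes were called. That gene, Nlgn2, an organiser of inhibitory synapses, fell by 1.52 ± 0.24 (limma adjusted p = 0.0173). Of the 56, 5 were higher and 8 lower in Shh tumours than in GFP-positive cells, where 7.56% of all genes were called. In Myc primary tumours 5 were higher and 15 lower than in GFP-positive cells, where 24.8% of all genes were called, and 7 were higher and 21 lower than in GFP-negative cells, where 33.8% were called.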

How the data were processed

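The deposited values are the authors' log2 signals of 45141 probe sets, made with RMA in Partek 6.5 per the submitters' processing notes; the RMA settings are not given in the sources used here. They were used as deposited. Control probe sets (104), probe sets without a gene (15588) and those with several (551) were left out, and 28689 of the other 28898 took their current symbol from RefSeq by gene ID. Groups came from the source names. The receptor genes and the gene lists were chosen with earlier results of these data known.

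A one-way fit over the 5 groups in limma 3.58.1 (R 4.3.3; 10 residual and 2.54 prior degrees of freedom) was tested on simulated data. Tests were two-sided, adjusted by Benjamini-Hochberg over 17097 genes and called below 0.05. Genes with full values were those with the largest called differences of at least 1 log2 unit whose arrays did not overlap, up to 6 in each direction, and up to 4 per family by F test. Whether samples of a group came from separate animals is not stated, so p-values cover only the spread between samples, which may be technical. Alternatives were averaging the probe sets of each gene, each probe set by itself, dim genes left out, cyclic loess, centring, an intensity trend with robust variance (statmod 1.5.0), the 6 arrays of a comparison only, and leaving out the 3 arrays that stood apart or each array in turn. Figures used matplotlib 3.10.9 with Python 3.11.15.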

Additional observations from a re-analysis of the deposited data

How the results depend on the processing

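The 58 calls of receptor genes were refitted under 23 alternatives, giving 1329 values; 1197 kept direction and call, 132 kept direction but missed the threshold, and 0 turned round. Of the 58 calls, 39 held under all alternatives run. Some were lost outside the fits without 1 array. Among them, in GFP-positive against GFP-negative cells, were Gria2 under cyclic loess (0.97) and Gria3 with centred arrays (-0.64). With the 6 arrays only, Gabra5 was lost in all 3 comparisons of Myc primary tumours that had called it. Gabra4 in Myc primary tumours against GFP-negative cells was lost there too. In Myc secondary against Myc primary tumours 0 genes were called with centred arrays, with the intensity trend, without the 3 arrays that stood apart and with the 6 arrays only. In Shh tumours against GFP-positive cells the count was 10 without the 3 arrays and 11 with the 6 arrays only. Leaving out 1 array gave 6 to 11 calls for Myc primary against Shh tumours, 0 to 2 for Myc secondary against Myc primary tumours, 12 to 17 for GFP-positive against GFP-negative cells, 3 to 9 for Shh tumours against GFP-positive cells, 7 to 12 and 13 to 17 for Myc primary tumours against GFP-positive and GFP-negative cells, and 18 to 22 in the F test. Centring called 9128 of all genes in GFP-positive against GFP-negative cells, against 4505 as deposited, and 274 in Myc secondary against Myc primary tumours, against 123. It moved the median difference of all genes to 0.30 in Myc secondary against Myc primary tumours, 0.54 in GFP-positive against GFP-negative cells, -0.30 in Shh tumours against GFP-positive cells, and -0.24 and 0.26 in Myc primary tumours against GFP-positive and GFP-negative cells. The cause was not tested. No paired analysis was possible because the labels give no replicate numbers. For 17 genes every group mean was below the background level of 4.77. Only 6 of the 37 genes had all group means above it. For the rest, signals below background limit what can be said.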
